A study of Mus musculus with 27 samples.

Results

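The genes described here encode SR proteins and hnRNPs, which bind nascent transcripts and steer splice-site choice. Members were the protein-coding genes of the GENCODE M21 mouse annotation whose symbol starts with Srsf or Hnrnp, together with Tra2a, Tra2b, Ptbp1 and Ptbp3. They came to 35 genes of the 51826 identifiers in the count files, and were 13 SR proteins (Tra2a and Tra2b among them), 20 hnRNPs and the 2 polypyrimidine tract-binding genes Ptbp1 and Ptbp3. Total RNA was sequenced, after removal of ribosomal RNA, from mouse embryonic stem cells and from the embryoid bodies they form when they differentiate. The groups were the wild-type reference line E14, a Quaking knockout (KO) line and a Sam68 KO line, both with E14 as their background, each at days 0, 3 and 10, with 3 libraries per group and 27 in all. The series addresses what STAR proteins, the RNA-binding family of Quaking and Sam68, do in early mammalian development. Each knockout was 1 line, so its clone and its genotype cannot be told apart. The library numbers in the descriptions of the Sam68 KO samples are separate from those of the other samples, so the label Sam68 KO and a batch of libraries cannot be told apart either. The labels call the 3 libraries of a group biological replicates without saying how cultures were separated, and the p-values measure the spread between these libraries alone.

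SR proteins carry RNA-recognition domains and a tail rich in arginine and serine. They bind exonic enhancers and recruit the splicing machinery to nearby splice sites, and their activity and location follow phosphorylation of the tail by SRPK and CLK kinases. The hnRNPs coat nascent transcripts, and many of them silence exons or oppose SR proteins at shared sites. Many genes of both families hold an ultraconserved poison exon whose inclusion sends the transcript to nonsense-mediated decay, a loop through which the proteins limit their own level. Counts per gene do not separate transcripts with and without such exons, so the values below are total transcript levels.

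The libraries held 56.5 to 77.3 M counts (M, 1000000), of which the 35 genes took 0.792% to 1.27%. All 35 were tested in every comparison, and the lowest count of any of them other than Srsf12 was 786. Srsf12 had at least 40 counts in each library. Qk, the gene of Quaking, had lower levels than wild type in its KO line at each day, with 159 ± 9.35 CPM (counts per 1000000 after scaling of the libraries; mean ± SD, n = 3 here and below) against 235 ± 4.22 in wild type at day 0. Khdrbs1, the gene of Sam68, stood at 92.3 ± 4.49 CPM in the libraries labelled Sam68 KO against 98.9 ± 1.5 in wild type at day 0. It was called lower in them at day 3 (97.2 ± 7.31 against 159 ± 7.24 CPM, edgeR adjusted p = 1.15e-07), while day 0 (adjusted p = 0.576) and day 10 gave no call (adjusted p = 0.132). The libraries are therefore named by their label, Sam68-labelled, throughout. Across the lines, Khdrbs1 stood at 73.9 ± 4.08, 168 ± 15.3 and 107 ± 1.49 CPM in the Quaking KO line at days 0, 3 and 10. Wild type held 115 ± 27.1 CPM of it at day 10. Qk stood at 209 ± 9.41, 182 ± 2.32 and 270 ± 8.73 CPM in the Sam68-labelled libraries, against 235 ± 4.22, 226 ± 7.64 and 267 ± 15.2 in wild type. Single libraries stood apart for some of the genes. For Hnrnpa1, replicate 2 of wild type at day 10 held 570 CPM against 366 and 407 in replicates 1 and 3. Replicate 3 of the Quaking KO line at day 3 held 50175 counts of it against 28303 and 31021. Replicate 1 of wild type at day 10 held 135 CPM of Hnrnpa3 where replicates 2 and 3 held 71 and 73.2, and it was also highest for Hnrnpul2 (113 against 75.9 and 77.7) and Hnrnpd (85.1 against 53.2 and 59.4). It also held 146 CPM of Khdrbs1 against 98 and 100, and without it the day 10 difference of Khdrbs1 in the Sam68-labelled line went from -0.25 to -0.03 (edgeR adjusted p = 0.573). For the 35 genes, day 10 calls that changed without this library are given below. Embryonic stem cell markers (6 genes, among them Pou5f1 and Nanog) summed to 2845 to 3027 CPM in wild type at day 0 and to 92 to 111 at day 10, so the stem cell label held at day 0 and the cells had left that state at day 10.

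Among themselves the genes spanned more than 2 orders of magnitude in level. Per kilobase of merged exons, the highest in wild type at day 0 were Hnrnpab, an RNA-binding protein also known for binding DNA, at 227 ± 6.5 CPM per kb, Hnrnpf, which binds runs of G, at 186 ± 5.69, Hnrnpk, a KH-domain protein that binds runs of C, at 177 ± 2.86, Ptbp1, a repressor of exons beside pyrimidine-rich tracts, at 146 ± 5.12, and Srsf1, the founding SR protein, at 143 ± 1. The libraries of Hnrnpab, Hnrnpf and Hnrnpk did not overlap in this order. The lowest were Hnrnpr at 6.25 ± 0.129, Hnrnph3 at 4.44 ± 0.335 and Srsf12 at 0.405 ± 0.0686 CPM per kb. At day 10 Hnrnpa1, a silencer of exons and introns, led the order with 142 ± 34.3 CPM per kb, within its own spread of Hnrnpab at 124 ± 13. Hnrnpf had dropped to 77.4 ± 8.18. Srsf12 was the lowest of the 35 in all 9 groups.

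**Figure D1:**
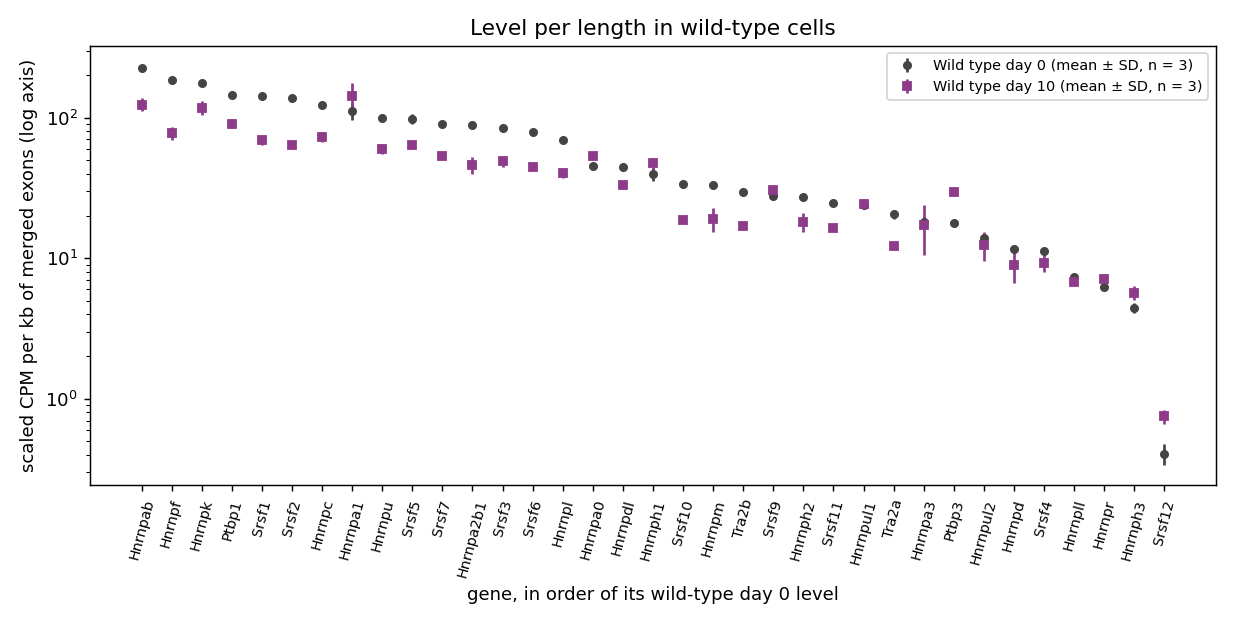
Level per length of each gene in wild-type cells, in CPM per kb of merged exons on a log axis, for days 0 and 10 (mean ± SD, n = 3), with genes in order of their day 0 level. Most genes lie lower at day 10, Hnrnpf going from 186 to 77.4, while Srsf12, the lowest, goes from 0.405 to 0.75.

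In wild type most of the genes were lower in day 10 embryoid bodies than in stem cells. Of the 35 genes 31 were called at day 10 against day 0 (edgeR's quasi-likelihood test, adjusted p under 0.05), 8 higher and 23 lower. Of all 21060 genes tested 80.8% were called, 41.4% higher and 39.4% lower. The share called is therefore close to that of all genes, and the direction is not: the median log2 fold change was -0.55 over the 35 genes and 0.01 over all genes. All 13 SR proteins were called, 11 lower and 2 higher, and 16 of the 20 hnRNPs, 11 lower and 5 higher. These are bulk samples, in which fewer cells of a type and less RNA per cell cannot be told apart.

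Srsf1 stood at 810, 821 and 814 CPM in the 3 wild-type libraries of day 0, at 816, 838 and 829 at day 3 and at 374, 382 and 424 at day 10. Days 0 and 3 were within a few percent of each other, and every day 10 library lay far below them. Srsf1 fell by 1.01 ± 0.07 on the log2 scale by day 10 (± SE here and below, adjusted p = 7.07e-09). Srsf2, which like Srsf1 binds exonic enhancers and has also been linked to release of paused polymerase, stood at 404, 397 and 412 CPM at day 0 and at 187, 185 and 194 at day 10, and fell by 1.06 ± 0.06 (adjusted p = 1.05e-09). The other SR proteins that fell did so by 0.24 (Srsf4, not called without wild type day 10 replicate 2, at -0.16 with adjusted p = 0.0693) to 0.82 (Srsf10, which acts mainly as a repressor when dephosphorylated). Tra2a and Tra2b, paralogues that bind GAA-rich enhancers, fell by 0.71 ± 0.06 and 0.76 ± 0.06.

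The largest fall of all 35 was that of Hnrnpf. It held 548, 582 and 573 CPM at day 0, 475, 528 and 520 at day 3 and 208, 241 and 257 at day 10, and fell by 1.23 ± 0.08 (adjusted p = 8.76e-09). Every day 10 library was under the lowest day 0 library by more than any spread within a day. Hnrnpa2b1, which binds UAG motifs and sorts RNAs for transport, held 568, 633 and 561 CPM at day 0 and 301, 264 and 347 at day 10 (-0.91 ± 0.09, adjusted p = 6.3e-07). Hnrnpab fell by 0.84 ± 0.08, and Hnrnpm, Hnrnpl, Hnrnpc and Hnrnpu by 0.69 to 0.76. Hnrnpk, at 1156, 1156 and 1124 CPM at day 0 and at 663, 826 and 797 at day 10, fell by 0.55 ± 0.09.

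Ptbp1 and Ptbp3, paralogues with like RNA-binding domains, moved in opposite directions. Ptbp1 held 677, 682 and 721 CPM at day 0 and 422, 426 and 439 at day 10, a fall of 0.66 ± 0.06 (adjusted p = 2.26e-07). Ptbp3 held 132, 137 and 131 CPM at day 0 and 220, 217 and 223 at day 10, a rise of 0.75 ± 0.06 (adjusted p = 2.48e-08). Neither was called at day 3, where the values were 0.11 ± 0.06 for Ptbp1 and 0.02 ± 0.06 for Ptbp3.

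Srsf12, an SR protein that was described as a repressor of splicing, rose most. It held 1.41, 1.03 and 1.39 CPM at day 0, 3.18, 3.03 and 3.33 at day 3 and 2.07, 2.58 and 2.44 at day 10, a rise of 1.35 ± 0.15 by day 3 and of 0.93 ± 0.15 by day 10. The day 0 libraries lay below all others. Hnrnph3 rose by 0.39 ± 0.11 by day 10, Hnrnpa1 by 0.37 ± 0.16 and Hnrnph1 by 0.29 ± 0.09, the last a close relative of Hnrnpf. The calls of Hnrnpa1 and Hnrnph1 depended on single libraries. Hnrnpa1 was not called at day 10 without day 10 replicate 2 (0.16, adjusted p = 0.254), without day 0 replicate 2 (0.38, adjusted p = 0.0764) or without day 0 replicate 3 (0.26, adjusted p = 0.173), nor Hnrnph1 without day 0 replicate 3 (0.20, adjusted p = 0.0503).

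By day 3 the change was smaller and mostly upward. In wild type 11 of the 35 genes were called at day 3 against day 0, against 60.9% of all genes, with 9 higher and 2 lower against 30.8% and 30.1%. With DESeq2's size factors 7 were higher and 3 lower, and among the 17 genes without shared sequence 6 and 3, against 7 and 2 of the same 17. Srsf9, a small SR protein that was described to act with and against Srsf1, rose from 42.4, 46.5 and 47.7 CPM to 83.7, 86 and 88.2 (0.95 ± 0.07, adjusted p = 4.26e-08). Hnrnpdl, a relative of the AU-rich element binding protein of Hnrnpd, rose from 222, 211 and 207 to 347, 340 and 348 CPM (0.72 ± 0.06), and stood at 154, 164 and 165 at day 10, below where it began. Hnrnph1 rose by 0.71 ± 0.09 and Hnrnpa0 by 0.59 ± 0.06, with their day 10 libraries in between, and Hnrnpa1 by 0.59 ± 0.16. Hnrnpul2 fell by 0.34 ± 0.11 and Srsf11 by 0.16 ± 0.06, and these calls were lost in 3 and 5 of the 6 fits without 1 library (-0.30 to -0.34 and -0.14 to -0.17 there). Tra2a and Tra2b were at -0.05 ± 0.06 and -0.04 ± 0.06 and were not called. Of the 23 genes that were lower at day 10, 19 were not called at day 3, 3 were called higher there (Hnrnpdl, Hnrnph2 and Srsf6) and Srsf11 was called lower. The calls of Hnrnph2 and Srsf6 at day 3 were lost when any 1 of the 6 libraries was left out.

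**Figure D2:**
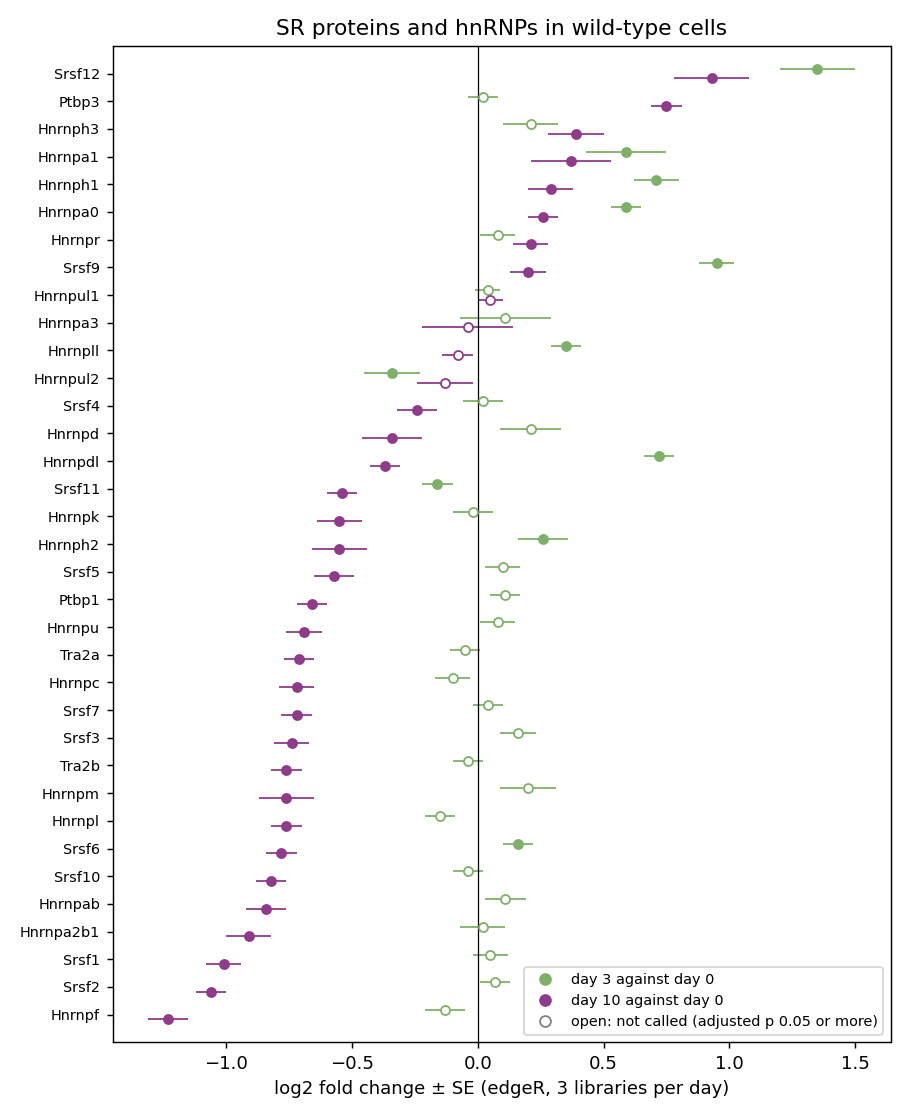
Log2 fold change ± SE (horizontal axis) of each of the 35 genes in wild-type cells at day 3 and at day 10 against day 0, 3 libraries per day, with open points for genes not called. At day 10, 23 genes lie below 0 and are called, while at day 3 most points lie near 0 and Srsf12 and Srsf9 lie highest, at 1.35 and 0.95.

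The day 10 fall was shared by the 3 lines. For 22 genes (62.9%), all 3 day 10 libraries lay below all 3 day 0 libraries in each of the 3 lines, which was so for 28.6% of the 23198 genes with at least 10 counts in 3 libraries. For 4 genes, Hnrnpa0, Ptbp3, Srsf12 and Srsf9, they lay above in each line, against 32.3% of all such genes. No library is shared between the lines in this count, and all share the scaling.

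The choice of scaling moved the day 10 values together. When the fit was restricted to protein-coding genes that share under 5% of their 50-base windows with other genes, 17 of the 35 remained and their day 10 values shifted by -0.17. Among these 17 the calls changed from 6 higher and 8 lower to 2 higher (Ptbp3, 0.58, and Srsf12, 0.75) and 11 lower. The rises of Hnrnph3, Hnrnph1, Hnrnpa0 and Srsf9 at day 10 were not called on that scale, and Hnrnpll (-0.26), Hnrnpul2 (-0.30) and Hnrnpul1 (-0.12) were called lower. Without wild type day 10 replicate 1, 34 genes were called, 8 higher and 26 lower, with a median of -0.54. Hnrnpa3, a relative of Hnrnpa2b1 that went from -0.04 to -0.39 (adjusted p = 0.000186), Hnrnpul2 (-0.32) and Hnrnpll were added, and Hnrnpd went from -0.34 to -0.54. Hnrnpd was not called without day 10 replicate 2 (-0.20, adjusted p = 0.0989), day 10 replicate 3 (-0.27) or day 0 replicate 2 (-0.33). Hnrnpr was not called without day 0 replicate 2 (0.20) or 3 (0.19) or day 10 replicate 2 (0.18) or 3 (0.17), and Srsf9 not without day 0 replicate 1 (0.15) or day 10 replicate 3 (0.14).

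Other genes of splicing and of transcript decay fell with them at day 10 in wild-type cells. Of 15 SR-related and splice-site proteins tested, 13 fell and none rose, with a median of -0.60, where 39.4% of all genes fell and 80.8% were called. They included U2af1, the subunit that reads the AG of the 3′ splice site (-1.32 ± 0.08), Snrnp70 of the U1 particle (-0.84 ± 0.08) and Sf3b1, which holds the branch point (-0.73 ± 0.06). Of 14 genes of nonsense-mediated decay and the exon junction complex, 11 fell and 1 rose, with a median of -0.84, from Magohb (-1.47 ± 0.11) to Smg8 (-0.50 ± 0.07), while the endonuclease Smg6 rose by 0.58 ± 0.06. Among 22 hnRNP-like genes without the prefix, 9 fell and 6 rose. Syncrip fell by 0.97 ± 0.07, and Ptbp2, the paralogue that replaces Ptbp1 in neurons, rose by 1.24 ± 0.06. Of 14 kinases, import receptors, phosphatases and methylases, 5 fell and 3 rose, a share called below that of all genes. The SR protein kinase Srpk1 fell by 1.14 ± 0.06 and the SR protein import receptor Tnpo3 by 1.04 ± 0.06, and the muscle kinase Srpk3 rose by 5.55 ± 0.43. Cardiac muscle markers (5 genes) rose from 5.78 to 6.44 CPM in sum at day 0, with Nppa at 0, to 720 to 786 at day 10. Neuron markers (5 genes) summed to 185 to 197 CPM at day 0 and to 27.1 to 30.8 at day 10. Neural progenitor markers (3 genes) summed to 53.6 to 54.7 and to 60.9 to 71.8. The part of these cell types in the values was not tested.

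Promoters are shown for Srsf1 and Srsf2, which were among the larger falls at day 10, and for Srsf12, which rose. The RefSeq table (GRCm38.p6), which gives 250 bases before to 50 bases after a start, held 32 of the 35 genes. GGGCGG, the core of the GC box, was searched on both strands and stood in 27 of the 32 (84.4%), against 51.1% of 16477 protein-coding genes and 35.7% of all promoters. CCAAT, searched in the same way, stood in 19 (59.4%) against 42% of protein-coding genes and 37.4% of all promoters. A gene was counted when any of its promoters held the motif. The shares of all promoters count each promoter singly and are not a like measure. The median GC content was 66.8% over the members' 44 promoters and 57% over those of protein-coding genes. Capitals mark GGGCGG and CCAAT on either strand in the sequences that follow, of which overlapping matches run together.
Srsf1 (chr11:88047123-88047422, + strand): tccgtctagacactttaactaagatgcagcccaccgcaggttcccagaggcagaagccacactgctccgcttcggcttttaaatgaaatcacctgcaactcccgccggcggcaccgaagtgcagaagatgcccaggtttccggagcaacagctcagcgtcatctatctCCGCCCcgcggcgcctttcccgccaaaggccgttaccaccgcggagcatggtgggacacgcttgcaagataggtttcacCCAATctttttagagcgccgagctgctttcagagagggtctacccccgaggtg
Srsf2 (chr11:116853045-116853344, - strand): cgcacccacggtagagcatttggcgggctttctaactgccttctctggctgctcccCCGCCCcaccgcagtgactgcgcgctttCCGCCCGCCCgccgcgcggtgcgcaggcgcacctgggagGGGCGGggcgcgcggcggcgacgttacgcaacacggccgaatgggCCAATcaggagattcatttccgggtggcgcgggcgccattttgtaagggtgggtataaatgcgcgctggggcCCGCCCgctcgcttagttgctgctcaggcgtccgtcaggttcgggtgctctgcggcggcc
Srsf12 (chr4:33209022-33209321, + strand): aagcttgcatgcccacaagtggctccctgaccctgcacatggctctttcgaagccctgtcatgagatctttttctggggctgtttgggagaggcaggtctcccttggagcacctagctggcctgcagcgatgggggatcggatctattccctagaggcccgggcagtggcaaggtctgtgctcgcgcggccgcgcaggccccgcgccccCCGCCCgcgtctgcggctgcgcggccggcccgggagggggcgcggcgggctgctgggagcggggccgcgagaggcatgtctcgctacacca
Srsf2 held 5 matches to GGGCGG and 1 to CCAAT, and Srsf1 held 1 of each. Srsf12, which rose, held 1 match to GGGCGG and no CCAAT in this window, and Srsf9, which also rose, held 3 and no CCAAT. Over the 32 genes, CCAAT also stood in genes that rose (Hnrnpa0 and Hnrnph1 among them). It was absent from genes that fell, such as Srsf6 and Srsf7. A link of either motif to the direction of change was not tested.

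In the Quaking KO line the differences from wild type were small. At day 0, 13 of the 35 genes were called, against 39.7% of all 19841 genes tested. They were 10 higher and 3 lower, against 19.4% and 20.3% of all genes, and the median log2 fold change was 0.06. Hnrnph3 was the largest. It held 14.2, 14.9 and 12.8 CPM in wild type and 16.2, 18.2 and 21.4 in the Quaking KO line, without overlap (0.40 ± 0.08, adjusted p = 0.000297). Hnrnpul2 (0.19 ± 0.04), Hnrnpa0 (0.18 ± 0.04), Hnrnpd (0.17 ± 0.04), Hnrnpul1 (0.16 ± 0.03) and Ptbp3 (0.16 ± 0.04) were higher, the last at 155, 143 and 153 against 132, 137 and 131 CPM. Hnrnpf was lower by 0.14 ± 0.03, Hnrnpa2b1 by 0.14 ± 0.04 and Hnrnpa1 by 0.27 ± 0.09. Ptbp1 (0.07 ± 0.03), Tra2a (-0.07 ± 0.05) and Tra2b (0.04 ± 0.03) were not called. Only 2 of the 13 SR proteins were called, Srsf6 at 0.10 ± 0.03 and Srsf3 at 0.08 ± 0.03. Of the 13 calls, 7 held in each of the 6 fits with 1 library left out, and the other 6 were Hnrnpa1, Hnrnpa2b1, Hnrnpc, Hnrnpl, Srsf3 and Srsf6. With DESeq2's size factors in place of TMM, which shifted the values by 0.02, 21 genes were called.

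At day 3 only Hnrnpa2b1 was called in the Quaking KO line, against 7.01% of all genes (3.08% higher and 3.93% lower). It held 507, 515 and 524 CPM against 558, 606 and 590 in wild type (-0.18 ± 0.04, adjusted p = 0.0159), and it was not called once replicate 2 (adjusted p = 0.0926) or replicate 3 (adjusted p = 0.0669) of wild type was left out. Ptbp1, Ptbp3, Tra2a and Tra2b had values of -0.02 ± 0.04, -0.12 ± 0.05, 0.01 ± 0.05 and -0.05 ± 0.05. At day 10, 3 genes were called, 2 higher and 1 lower, against 11.7% of all genes (4.96% higher and 6.71% lower). Hnrnpm, which binds GU-rich sites, held 208, 200 and 197 CPM against 122, 153 and 179 (0.39 ± 0.1). Srsf9 held 62.7, 60.3 and 56.2 against 48.4, 49.6 and 54.8 (0.21 ± 0.06), and Srsf12 held 1.85, 1.49 and 1.59 against 2.07, 2.58 and 2.44 (-0.54 ± 0.14). None of the 3 groups overlapped, and their adjusted p-values were 0.0328, 0.0484 and 0.0318. Each of the 3 calls was lost with replicate 2 of wild type left out and also with replicate 2 of the Quaking KO line left out, and in a fit on the 6 libraries alone none was called. Without wild type day 10 replicate 1, Hnrnpm was at 0.26 (adjusted p = 0.0156), Srsf9 was not called (0.18) and Hnrnpd was called (0.20, from -0.04). Ptbp1, Ptbp3, Tra2a and Tra2b were at 0.10 ± 0.06, 0.06 ± 0.05, -0.00 ± 0.06 and 0.06 ± 0.06, and were not called.

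The Sam68-labelled libraries differed more, as they did over all genes. At day 0, 28 of the 35 genes were called, 18 higher and 10 lower, against 74.4% of all genes (36.5% higher and 37.9% lower). At day 3, 28 were called, 13 higher and 15 lower, against 73.1% (36% and 37.1%). At day 10, 9 were called, 2 higher and 7 lower, against 50.6% (22.8% and 27.8%). The shares at days 0 and 3 are close to those of all genes and the share at day 10 is below. The log2 fold changes follow the scaling of each fit and the CPM that of all 27 libraries, so the 2 can differ. Srsf6, called higher at day 0, held 386 ± 4.56 CPM in the Sam68-labelled libraries against 381 ± 4.67 in wild type. Small differences, and the balance of higher and lower, depend on this scaling. In the Sam68-labelled line Hnrnpa1 and Hnrnph3 were higher at each of the 3 days, 2 of 35 genes against 6.29% of the 17496 genes tested at all days. Srsf1, Srsf3, Srsf7, Srsf9 and Srsf12 were lower at each day, 5 of 35 against 12.5%. The day 10 call of Srsf9 was lost with Sam68 KO replicate 2 (-0.20) or replicate 3 of wild type (-0.17) left out. Both shares are near those of all genes. In the Quaking KO line no gene of the 35 was higher or lower at all 3 days, against 0.389% and 0.817% of all genes.

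Hnrnph3, a member of the G-run binding family of Hnrnpf and Hnrnph1, held 31.6, 29.7 and 29.9 CPM at day 0 in the Sam68-labelled libraries, 39.9, 37.3 and 37.5 at day 3 and 34.4, 32.3 and 34.5 at day 10. The 18 libraries of the other lines ran from 12.8 to 22.4, so none reached the Sam68-labelled ones at any day. The difference from wild type was 1.20 ± 0.07 at day 0 (adjusted p = 3.35e-11), 1.29 ± 0.1 at day 3 (1.18e-08) and 0.87 ± 0.09 at day 10 (1.19e-05). Rufy2 lies over Hnrnph3 on the opposite strand and was itself higher by 0.16, 0.53 and 0.24. The strand setting of the counting was in none of the sources, so reads of the 2.04% of Hnrnph3 windows that Rufy2 shares cannot be told apart. In the fit on genes with under 5% shared sequence Hnrnph3 stood at 1.22, 1.32 and 0.84. That fit kept all counts of Hnrnph3 and shifted every member in it alike, by 0.03, 0.04 and -0.03. It therefore cannot separate reads of Rufy2. Hnrnpa1 held 542, 523 and 514 CPM at day 0, against 395, 365 and 302 in wild type (0.64 ± 0.09, adjusted p = 1.66e-06). It was higher by 0.55 ± 0.15 at day 3 and by 0.53 ± 0.15 at day 10, where 681, 657 and 654 CPM stood against 366, 570 and 407. The groups did not overlap at any of the 3 days. Hnrnpa1 shares 28.2% of its 50-base windows with other genes, most of them with Gm10052, a copy that is identical over its whole length, and its level is uncertain for that reason.

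Among the genes that were lower, Srsf12 held 0.831, 0.648 and 0.693 CPM at day 0, 2.11, 1.86 and 1.79 at day 3 and 1.21, 1.01 and 1.16 at day 10. All of these lay below the wild-type libraries of their day, by 0.74 ± 0.17, 0.72 ± 0.13 and 1.11 ± 0.15. Srsf1 held 683, 643 and 676 CPM at day 0 and 311, 321 and 362 at day 10, and was lower by 0.21 ± 0.03, 0.31 ± 0.04 and 0.29 ± 0.07. Srsf3, the smallest SR protein and a factor in mRNA export, was lower by 0.16 ± 0.03, 0.29 ± 0.05 and 0.30 ± 0.07, Srsf7 by 0.18 ± 0.03, 0.20 ± 0.04 and 0.25 ± 0.05, and Srsf9 by 0.23 ± 0.04, 0.30 ± 0.05 and 0.24 ± 0.06. At day 10 the call of Srsf1 was lost without Sam68 KO day 10 replicate 1 or 2 or wild type day 10 replicate 3, and that of Srsf9 without Sam68 KO day 10 replicate 2 or wild type day 10 replicate 3.

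Srsf4, Ptbp1, Ptbp3 and several other hnRNPs differed at days 0 and 3 and were not called at day 10. Tra2a, Tra2b, Srsf5, Hnrnpr and Srsf10, given after them, followed other courses. Srsf4 held 56.4, 54.4 and 53.4 CPM against 39.2, 39.3 and 40.7 at day 0 (0.54 ± 0.04) and was higher by 0.45 ± 0.05 at day 3. It shares 39.5% of its windows with the antisense gene Gm12992, which averaged 0.679 CPM in the Sam68-labelled libraries at day 0. Hnrnpa3 was higher by 0.48 ± 0.07 and 0.63 ± 0.07, Hnrnph1 by 0.60 ± 0.06 and 0.28 ± 0.06, and Hnrnpul2 by 0.33 ± 0.04 and 0.38 ± 0.04. Hnrnpf held 379, 380 and 383 CPM at day 0 against 548, 582 and 573, and was lower by 0.50 ± 0.03 and 0.45 ± 0.06. Hnrnpc, which binds runs of U, was lower by 0.33 ± 0.03 and 0.32 ± 0.05, and Hnrnpk by 0.26 ± 0.03 and 0.37 ± 0.05. Ptbp1 held 567, 561 and 552 CPM at day 0 and was lower by 0.23 ± 0.03 and 0.34 ± 0.04. Ptbp3 was lower by 0.19 ± 0.04 and 0.32 ± 0.05. Tra2a was at 0.03 ± 0.05 at day 0, was higher at day 3 (0.29 ± 0.05) and stood at -0.07 ± 0.06 at day 10, and Tra2b was at -0.06 ± 0.03, was lower at day 3 (-0.17 ± 0.05) and stood at -0.06 ± 0.06. Srsf5 was lower at day 3 by 0.35 ± 0.05, and stood at 0.06 ± 0.05 at day 0 and 0.01 ± 0.06 at day 10. Hnrnpr and Srsf10 were higher at day 0, by 0.31 ± 0.03 and 0.29 ± 0.04, and lower at day 10, by 0.27 ± 0.07 and 0.25 ± 0.05. The day 10 call of Hnrnpr was lost without Sam68 KO replicate 1 (-0.22) or 2 (-0.21) or wild type replicate 3 (-0.21). Hnrnpab, Hnrnpl and Hnrnpul1 were called at no day. Without wild type day 10 replicate 1, 13 genes were called at day 10, with Hnrnpa3 (0.33), Srsf4 (0.33), Hnrnpul2 (0.21) and Hnrnpc added.

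**Figure D3:**
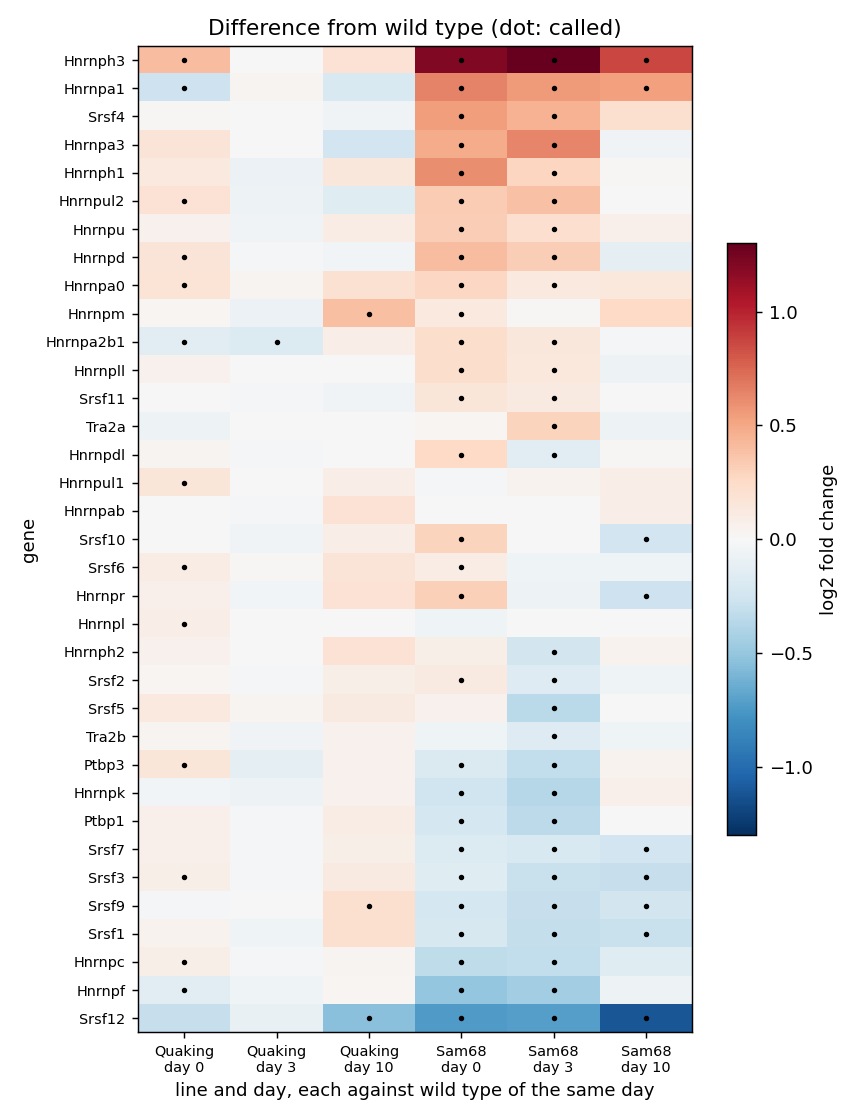
Log2 fold change against wild type of the same day (colour) for the 35 genes in the Quaking KO line and the Sam68-labelled line, each at days 0, 3 and 10, with a dot where a gene was called. Hnrnph3 (1.20, 1.29 and 0.87) and Hnrnpa1 head the Sam68-labelled columns and Srsf12 (-0.74, -0.72 and -1.11) closes them, while the Quaking columns are pale.

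**Figure D4:**
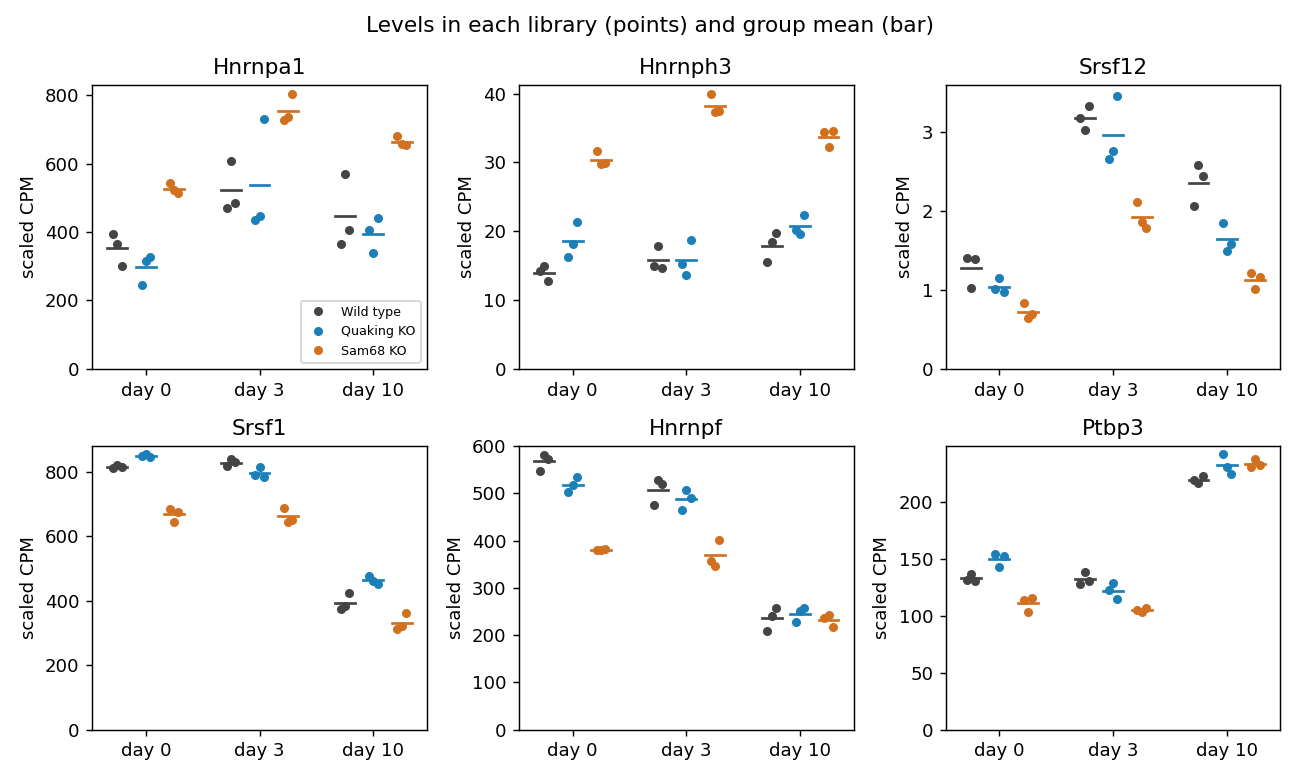
Scaled CPM of 6 genes in each of the 27 libraries (points) with the mean of each group (bar), by day and line. The Sam68-labelled libraries lie above all others for Hnrnph3 at each day and below wild type for Srsf12, Hnrnpf falls by day 10 to 208 to 257 in wild type and Ptbp3 rises to 217 to 223.

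Other genes of the pathway were counted from the same lists. In the Sam68-labelled line at day 0, all 15 SR-related and splice-site proteins tested were called, 10 higher and 5 lower (74.4% of all genes were called), from Rnps1 (-0.29 ± 0.03) to Srrm2 (0.64 ± 0.04). Of 13 kinases and their like, 7 were higher and 4 lower, and the CLK kinases Clk1 (0.41 ± 0.04), Clk2 (0.50 ± 0.06), Clk3 (0.41 ± 0.04) and Clk4 (0.55 ± 0.04) were among those higher. Among 21 hnRNP-like genes, 9 were higher and 7 lower, and Taf15 (1.05 ± 0.07) was among those higher. In the Quaking KO line at day 0, 9 of the 15 SR-related genes were higher and none lower, by 0.08 to 0.20, where 39.7% of all genes were called and 19.4% were higher. Clk1 was higher by 0.42 ± 0.04, and of the 14 decay genes Magohb was lower by 2.15 ± 0.11. Both genes were named after their values were seen, and the counts of their lists are not given here. At day 3 in the Sam68-labelled line 5 hnRNP-like genes were higher and 7 lower, of the kinases 5 and 5, of the SR-related genes 7 and 6, and of the decay genes 3 and 8, where 73.1% of all genes were called. At day 10, where 50.6% of all genes were called, 12 of 22 hnRNP-like genes were lower there and 1 higher, among them Ptbp2 (-0.41) and Rbmx (-0.56), while of the 15 SR-related genes 1 was lower and none higher. In the Quaking KO line at days 3 and 10, at most 2 genes of any of these 4 lists were called, against 7.01% and 11.7% of all genes. At day 10 in the Sam68-labelled line the cardiac markers summed to 1552 to 1691 CPM against 720 to 786 in wild type, and the 5 blood markers to 97.8 to 172 against 384 to 498. In the Quaking KO line cardiac markers summed to 189 to 407 CPM. Primitive streak markers (4 genes) summed at day 3 to 62.9 to 105 CPM in the Sam68-labelled line and to 489 to 746 in wild type. The part of such differences in the values of days 3 and 10 was not tested. At day 0 the stem cell markers summed to 2014 to 2039 CPM in the Sam68-labelled line and to 3389 to 3579 in the Quaking KO line, against 2845 to 3027 in wild type, and the groups did not overlap. Their part in the day 0 differences was not tested either.

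The differences between lines were then compared between days with the interaction of line and day. For the Quaking KO line, 3 of the 35 genes were called between days 0 and 3, against 15.9% of all genes (9.45% higher and 6.45% lower), all 3 lower: Ptbp3 (-0.28 ± 0.07), Hnrnpul2 (-0.27 ± 0.07) and Hnrnpd (-0.19 ± 0.06). None was called between days 0 and 10 by edgeR, against 13.8% of all genes (8.63% higher and 5.19% lower), with 4 at an unadjusted p under 0.05 and none by DESeq2. Without wild type day 10 replicate 1, Hnrnpm was called there (0.24, edgeR adjusted p = 0.0346). For the Sam68-labelled line, 9 were called between days 0 and 3, against 33.8% (18% higher and 15.9% lower), 1 higher (Tra2a, 0.28 ± 0.07) and 8 lower. The largest were Hnrnpdl (-0.38 ± 0.05), Srsf5 (-0.38 ± 0.07) and Hnrnpr (-0.35 ± 0.05), followed by Hnrnph2 (-0.31 ± 0.06) and Hnrnph1 (-0.29 ± 0.08). Between days 0 and 10, 12 were called, against 46.6% (24.6% higher and 22% lower), 4 higher and 8 lower. This balance differed between scalings. With DESeq2's size factors 6 were higher and 5 lower, and among the 17 genes without shared sequence none was higher and 10 were lower, with values shifted by -0.16, where the same 17 had 1 and 3. The differences of Hnrnph1 (-0.54 ± 0.11), Hnrnpr (-0.53 ± 0.09) and Srsf10 (-0.50 ± 0.08) moved down, and those of Hnrnpf (0.47 ± 0.1), Hnrnpk (0.37 ± 0.1), Ptbp3 (0.28 ± 0.07) and Ptbp1 (0.26 ± 0.07) moved up. That of Ptbp3 was 0.12 among genes without shared sequence and was not called there (edgeR adjusted p = 0.126), and the other 3 were not tested in that fit. For Ptbp1 that is a step from -0.23 at day 0 to -0.01 at day 10, and for Hnrnpf from -0.50 to -0.07. Without wild type day 10 replicate 1, 17 genes were called between days 0 and 10, and Hnrnpd went from -0.48 ± 0.16 to -0.25 and Srsf4 from -0.29 ± 0.1 to -0.18. Hnrnph3 (-0.38), Srsf3 (-0.18), Hnrnpl (0.16), Hnrnpul1 (0.16) and Hnrnpc (0.15) were added. The remaining interaction values of the PTB and Tra2 genes were not called. For the Quaking KO line they ran from -0.10 ± 0.05 (Ptbp1, day 3) to 0.08 ± 0.08 (Tra2a, day 3). For the Sam68-labelled line they ran from -0.11 ± 0.06 (Ptbp3, day 3) to 0.04 ± 0.07 (Tra2b, day 10).

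Many of these genes have processed copies, pseudogenes made when a spliced transcript is written back into the genome. A blastn search (at least 80% identity over at least 50% of the copy) gave 111 annotated copies of 19 of the 35 genes, of which 82 had a count in some library. Copies of the genes held far fewer counts in the Sam68-labelled libraries than in the others. Counts on copies as a percent of the parent's counts lay lower in all 9 Sam68-labelled libraries than in all 18 others for 11 of the 19 parents. In CPM, 26 of 42 copies with at least 10 counts in 3 libraries (61.9%) lay below in this way, and so did 50.2% of the 2125 processed pseudogenes that are no copy of these genes and 5.32% of all 23198 genes. The 3 libraries could be of any line, so a copy or gene could enter through the lines where it was high. The 11 parents were Hnrnpa1, Hnrnpdl, Hnrnpf, Hnrnph2, Hnrnpk, Hnrnpr, Ptbp1, Srsf10, Srsf3, Srsf5 and Tra2b. For the other 8 parents (Hnrnpa2b1, Hnrnpa3, Hnrnpc, Hnrnpd, Hnrnph1, Hnrnpl, Hnrnpul2 and Srsf7) the libraries overlapped, and the copies of Hnrnph1 and Hnrnpul2 had no count anywhere.

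The copies of Hnrnpf are shown because their difference between libraries was among the largest. A pair of stretches of 90 bases in its coding sequence are set beside the same stretch of a copy on GRCm38, with the bases that differ in capitals. The copies of Hnrnpk and Ptbp1 follow in the same way.
Hnrnpf (chr6:117924556-117924645, + strand): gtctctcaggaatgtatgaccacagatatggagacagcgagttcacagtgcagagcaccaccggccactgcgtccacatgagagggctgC
Gm12435 (chr4:48344573-48344662, - strand): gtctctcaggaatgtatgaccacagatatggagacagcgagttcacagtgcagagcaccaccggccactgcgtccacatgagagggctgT
Hnrnpf (chr6:117924024-117924113, + strand): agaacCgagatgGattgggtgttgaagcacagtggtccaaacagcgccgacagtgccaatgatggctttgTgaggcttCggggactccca
Gm11793 (chr11:121107038-121107127, - strand): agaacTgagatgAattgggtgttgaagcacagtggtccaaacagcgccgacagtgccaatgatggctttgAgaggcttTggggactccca
Hnrnpk (chr13:58395204-58395293, - strand): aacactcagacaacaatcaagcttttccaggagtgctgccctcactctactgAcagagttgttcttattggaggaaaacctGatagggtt
Gm7964 (chr7:83756420-83756509, + strand): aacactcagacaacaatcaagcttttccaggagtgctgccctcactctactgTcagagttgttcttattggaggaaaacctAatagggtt
Ptbp1 (chr10:79858952-79859041, + strand): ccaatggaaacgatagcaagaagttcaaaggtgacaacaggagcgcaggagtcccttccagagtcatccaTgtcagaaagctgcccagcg
Gm4900 (chr13:3139911-3140000, - strand): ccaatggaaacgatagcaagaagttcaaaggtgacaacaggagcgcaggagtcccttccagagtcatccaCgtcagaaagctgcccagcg
The Gm12435 stretch differs from that of Hnrnpf at 1 base. The whole of Gm12435 (chr4:48344215-48345230, - strand) was 99.5% identical to its parent, and Gm11793 97.8%.

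The 6 copies of Hnrnpf took 2.15% to 2.94% of the parent's counts in wild type, 1.82% to 3.13% in the Quaking KO line and 0.157% to 0.299% in the Sam68-labelled libraries. The lowest of the other 18 libraries was thus above the highest of the Sam68-labelled ones. Gm12435 had a median of 3.05 CPM in wild type, 3 in the Quaking KO line and 0.141 in the Sam68-labelled line, and had a log2 fold change of -4.59 there at day 0. Gm11793 had medians of 2.13, 1.85 and 0.04 CPM. Gm4900, a copy of Ptbp1, had medians of 2.44, 2.02 and 0.2 CPM. Gm7964, the copy of Hnrnpk, had medians of 45.4, 40.8 and 28.2 CPM, and the copies of Hnrnpk together took 3.93% to 4.34% of the parent's counts in wild type and 3.05% to 3.48% in the Sam68-labelled line. The copies of Hnrnpa1 took 1.38% to 1.85% in wild type and 0.307% to 0.434% in the Sam68-labelled line. Those of Hnrnpa3, the gene with most copies (42), took 1.25% to 1.85% and 0.689% to 3.1%, and so overlapped. The copies of Hnrnpc took 2.52% to 3.16% in wild type and 1.9% to 2.66% in the Sam68-labelled line. For the other parents with counted copies the wild-type range lay under 1% of the parent. Among them Hnrnpr went from 0.59% to 0.942% in wild type to 0.0101% to 0.0502% in the Sam68-labelled line, Tra2b from 0.554% to 0.885% to 0.108% to 0.235%, Srsf10 from 0.446% to 0.674% to 0.0633% to 0.166% and Srsf3 from 0.433% to 0.574% to 0.115% to 0.226%.

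Of the copies that passed the filter, 27 of 37 were lower and 6 higher in the Sam68-labelled line at day 0 (median log2 fold change -2.58), 31 of 36 lower and 4 higher at day 3 (-3.62) and 29 of 34 lower and none higher at day 10 (-3.01). Of all genes tested, 37.9%, 37.1% and 27.8% were lower at these days and 36.5%, 36% and 22.8% higher. The filter used all libraries of a day, so a copy could enter through wild type and the Quaking KO line alone. Gm6187, at 0 CPM in every Sam68-labelled library, entered in this way at day 3. For such copies the direction was fixed by the filter, so these counts and medians are descriptive only. In the Quaking KO line none was called at any day by edgeR, with medians of -0.06, -0.12 and 0.05. Of all genes tested in that line, 39.7%, 7.01% and 11.7% were called. All annotated processed pseudogenes together, those of other families included, held 0.335% to 0.47% of counts in the Sam68-labelled libraries and 0.52% to 0.897% in the others. A library batch and the label cannot be told apart.

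**Figure D5:**
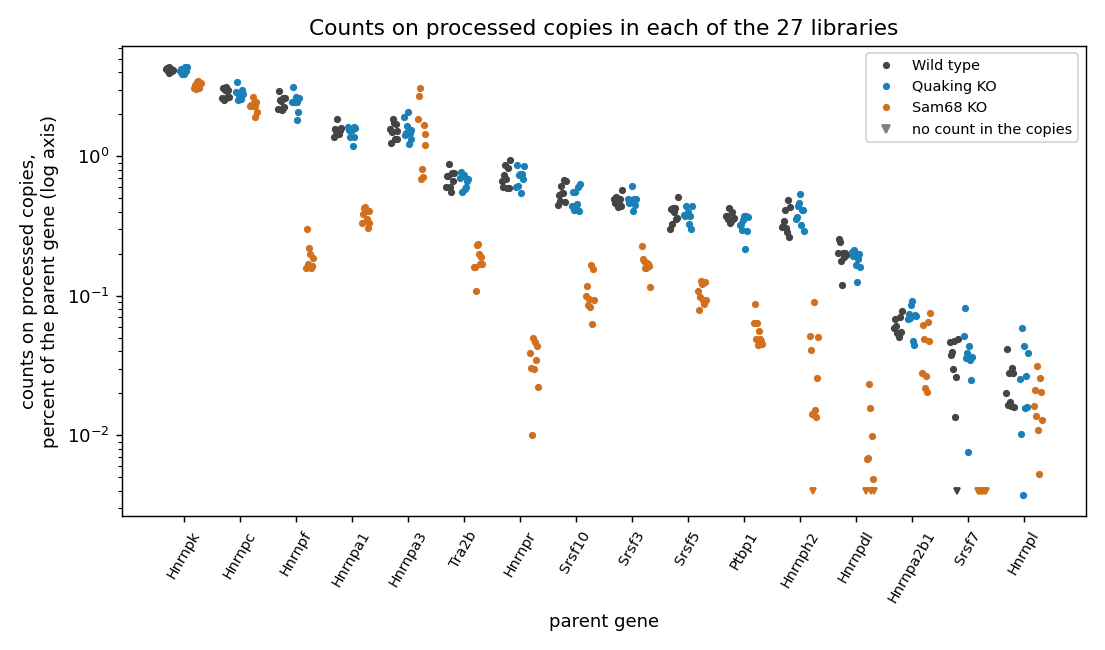
Counts on processed copies as a percent of the counts of their parent gene (log axis) in each of the 27 libraries, for the parents whose wild-type median is above 0.01%, with triangles for libraries without a count on any copy. The Sam68-labelled points lie below all others for 11 parents, by most for Hnrnpr and Hnrnpdl, and overlap them for Hnrnpc and Hnrnpa3.

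The values of the parents changed little when counts placed on copies were added to them. Copies held at most 4.34% of a parent's counts (Hnrnpk, wild type), so only a small shift was possible. Reads that the counting may have left out because they match several genes cannot be seen in this way. When the counts of copies were added to their parents before the fit, no log2 fold change moved by more than 0.034 (Hnrnpf, Sam68-labelled line at day 3), and 1 call changed over the 12 comparisons, Srsf5 in the Quaking KO line at day 0, which was gained. Of the 35 genes, 18 share 5% or more of their 50-base windows with some other gene, with Hnrnpf (61.9%), Srsf4 (39.5%), Hnrnpa1 (28.2%), Hnrnpa3 (27.1%), Hnrnpab (23.8%) and Srsf2 (20.7%) highest, and their levels are uncertain to that extent. Hnrnpab and Srsf2 share theirs with genes on the opposite strand, and at Hnrnpab that gene, Phykpl, was higher in the Sam68-labelled line by 1.21, 0.85 and 1.10 while Hnrnpab was at -0.00, -0.00 and 0.09.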

How the data were processed

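Ribosomal RNA-depleted total RNA of 27 libraries (3 lines, 3 days, 3 libraries each) was sequenced, per the labels' protocols. The deposited values are raw counts per gene. Per the submitters' processing notes, bcl2fastq 2.17.1.14 and STAR 2.5.3a were used with GRCm38. The counting program, its strand setting and its annotation were in none of the sources. Identifiers were matched without version to GENCODE M21 (99.6%).

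Levels are counts per 1000000 (CPM) after TMM scaling over the 27 libraries. Each fit was scaled on its own libraries, so the ratio of 2 printed levels can differ from the log2 fold change beside them. Differences were tested with edgeR 4.0.16 (R 4.3.3), using filterByExpr (minimum count 10, total 15) and quasi-likelihood F tests, Benjamini-Hochberg adjusted over all genes tested, called under 0.05. SE is the size of the log2 fold change over the root of F. Day comparisons within wild type used its libraries, comparisons of lines used the 3 groups of a day, and interactions used 12 libraries. Alternatives were DESeq2 1.42.0, DESeq2's size factors, no filter, protein-coding genes without shared sequence, a replicate block, other sets of libraries in the fit, copies added to parents and leaving out each library. The test was checked on simulated counts: for the Quaking KO line at day 0, 79.1% of genes changed 1.2-fold were recovered among 19381 genes, against 3% for the same line at day 10 (20118 genes) and 3% for wild type at day 3 (20366 genes). At 1.5-fold the shares were 100%, 80.6% and 98.5%. Each simulation changed 67 genes 1.2-fold, 67 genes 1.5-fold and 66 genes 2-fold, all of them well counted, with the same spread for every gene. Far more genes were called in each comparison of the data, so these shares hold for the simulated setting alone.

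Same-numbered libraries of different groups correlated between -0.0702 and 0.158 in their deviations, so the numbers were not taken as pairs. Replicates differed beyond sampling noise in every pair (chi-square per degree of freedom 3.37 to 205). The members, the gene lists and the tests were chosen with earlier results of these data known. The text names, for each comparison, the 5 called members with the largest rise and the 5 with the largest fall at a mean of at least 1 CPM, Ptbp1, Ptbp3, Tra2a and Tra2b, parents of processed copies, the 5 highest and 3 lowest genes per length and both targeted genes. Other genes were named after their values were seen.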

Additional observations from a re-analysis of the deposited data

Results flagged for a closer look

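The difference between a line and wild type itself differed between days for 24 pairs of gene and contrast, by the interaction of line and day in edgeR (adjusted p under 0.05). Each value is the later difference from wild type minus that at day 0, on the log2 scale.

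For the Quaking KO line from day 0 to day 3, these were Ptbp3 (-0.28), Hnrnpul2 (-0.27) and Hnrnpd (-0.19). All 3 were higher than wild type at day 0 and not called at day 3.

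For the Sam68-labelled line from day 0 to day 3, the SR proteins were Srsf5 (-0.38), Srsf10 (-0.27), Srsf2 (-0.27), Srsf6 (-0.13) and Tra2a (0.28). The hnRNPs were Hnrnpdl (-0.38), Hnrnpr (-0.35), Hnrnph2 (-0.31) and Hnrnph1 (-0.29).

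For the same line from day 0 to day 10, the values that moved down were those of Hnrnph1 (-0.54), Hnrnpr (-0.53), Srsf10 (-0.50), Hnrnpd (-0.48), Srsf4 (-0.29), Hnrnpll (-0.26), Hnrnpu (-0.21) and Hnrnpdl (-0.20). Those of Hnrnpf (0.47), Hnrnpk (0.37), Ptbp3 (0.28) and Ptbp1 (0.26) moved up.

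Of the 24 calls, 6 were lost in at least 1 of the 12 fits with 1 library left out. These were Hnrnpd in the Quaking KO line (7 fits), and in the Sam68-labelled line Srsf6 at day 3 (6) and Hnrnpdl (8), Hnrnpu (8), Srsf4 (6) and Hnrnpd (2) at day 10.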

How the results depend on the processing

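Leaving out 1 library at a time moved the members called to 8 to 17 in the Quaking KO line at day 0 (13 with all libraries), 0 to 1 at day 3 (1) and 0 to 3 at day 10 (3). All genes called ran from 749 to 1641 at day 3 (1381) and from 1399 to 3139 at day 10 (2392). In wild type at day 3 the range was 7 to 9 (11), for the Quaking interaction at day 10 it was 0 to 3 (0) and for the Sam68 interaction at day 3 it was 8 to 15 (9). DESeq2's size factors gave 21 members in the Quaking KO line at day 0, and a fit on the 6 libraries compared gave 0 at day 10. Without a filter the Quaking interactions gave 7 members at day 3 and 1 at day 10.

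Among protein-coding genes without shared sequence fewer genes were tested, 17 members among them. The Sam68-labelled line then gave 14 members and 7535 genes at day 0, 14 and 7388 at day 3 and 5 and 6313 at day 10. Wild type gave 8477 genes at day 3, and 13 members and 10282 genes at day 10. The Sam68 interactions gave 4 members at day 3 and 5841 genes at day 10, where values shifted by -0.16.

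The replicate numbers did not pair the libraries. With a replicate block, members called came to 11 and 28 at day 0 (Quaking and Sam68), 1 and 28 at day 3, 1 and 10 at day 10 and 31 in wild type at day 10.

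Values that changed sign were not called with all libraries. Without 1 library, Tra2a in the Sam68-labelled line at day 0 ran from -0.04 to 0.07 and in the Quaking KO line at day 3 from -0.05 to 0.06. Tra2a in the Quaking KO line went at day 10 to 0.01 with DESeq2, its size factors or no filter, to 0.02 with 6 libraries, to 0.00 among protein-coding genes and ran from -0.04 to 0.04 without 1 library. Ptbp1 in the Sam68-labelled line at day 10 went to 0.00 with DESeq2 or its size factors and ran from -0.02 to 0.03 without 1 library. Ptbp3 in wild type at day 3 went to -0.04 among protein-coding genes, to -0.01 with 27 libraries, and ran from -0.01 to 0.05 without 1 library. The Tra2b interactions at day 10 ran without 1 library from -0.00 to 0.06 (Quaking) and from -0.03 to 0.07 (Sam68). The cause was not tested. Depth limits Srsf12 most, which had the lowest counts.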
